A study of Mus musculus with 11 samples.

Results

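The Hippo pathway genes described here are 10 genes taken by symbol from the deposited count tables: the coactivators Yap1 and Wwtr1, the DNA-binding partners Tead1 to Tead4, the kinases Lats1 and Lats2, and the target genes Ctgf and Cyr61 (current symbols Ccn2 and Ccn1). They are 10 of 24490 genes counted, and all 10 were among the 14144 genes that passed the low-count filter. The RNA came from primary ovarian granulosa cells of RjOrl:SWISS mice, the somatic cells that surround the oocyte; the labels give no age or allele. Cells received 30 pmol of a nontargeting (scrambled) siRNA in 3 libraries, or 30 pmol of an siRNA pool against Akt1 in 8 libraries, 2 for each of 4 pools. Akt1 encodes a growth-factor-activated protein kinase. All cells were transfected with Lipofectamine RNAiMax, had the mix removed after 5 h and gave RNA 30 h after transfection. Each pool held 3 of 4 siRNAs, numbered here 6 to 9 after their catalogue codes. If the sample titles number the pools as the protocol does, siRNA 9 was missing from pool 1 and siRNA 7 from pool 2, while pool 3 was made without siRNA 8 and pool 4 without siRNA 6. Nothing in the labels says that libraries of a group came from separate cultures or animals, so a p-value here sets a difference against the spread of these libraries, which may be technical. The bulk libraries cannot tell a change in the share of cells of a type from a change in RNA per cell.

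In the Hippo pathway, the MST kinases (genes Stk3 and Stk4) with their adaptor SAV1 activate the LATS kinases, which phosphorylate YAP and its relative TAZ (gene Wwtr1) and hold them in the cytoplasm. Unphosphorylated YAP and TAZ enter the nucleus and bind TEAD factors, which have no strong activating domain of their own, to switch on genes such as Ctgf and Cyr61. Both of these encode secreted matrix-associated proteins of the CCN family. Lats2 is itself a known YAP target and so part of a feedback loop. In the ovary the pathway is known for restraining follicle growth. mRNA levels do not show how much YAP or TAZ is phosphorylated or nuclear.

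Since TEAD factors recognise the letters GGAATG, which read as CATTCC on the other strand, the 250 bases before each start site in RefSeq (GRCm38.p6, mm10) were searched for them on both strands. The promoter table matched 7 of the 10 genes and had no entry for Ctgf, Tead1 or Tead4, which were thus not searched. Yap1, Wwtr1, Tead3 and Cyr61 held at least 1 match, and Tead2, Lats1 and Lats2 held none. Of all 32851 single windows of this length, 12.6% held one. A gene was counted if any of its windows held a match, and Wwtr1, Tead3 and Lats2 had more than 1 window. The share of single windows is thus not a like measure for the counts of genes. The same search gave a match in 5 of 13 other YAP target genes that the table covers. For 4 matches the 30 bases around it are shown, 1 per gene with the match in capitals, to show where TEAD could be looked for at the genes measured here:
Yap1 (chr9:8004720-8004749, minus strand): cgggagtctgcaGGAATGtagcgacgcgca
Wwtr1 (chr3:57576029-57576058, minus strand): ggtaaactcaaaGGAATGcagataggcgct
Tead3 (chr17:28350970-28350999, minus strand): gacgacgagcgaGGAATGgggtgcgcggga
Cyr61 (chr3:145650071-145650100, minus strand): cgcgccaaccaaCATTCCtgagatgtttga

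The Cyr61 match lay 98 to 103 bases before the start site. The whole window is printed because Cyr61 is the target gene with a table entry, and the match stands in capitals within it (chr3:145649986-145650235, minus strand): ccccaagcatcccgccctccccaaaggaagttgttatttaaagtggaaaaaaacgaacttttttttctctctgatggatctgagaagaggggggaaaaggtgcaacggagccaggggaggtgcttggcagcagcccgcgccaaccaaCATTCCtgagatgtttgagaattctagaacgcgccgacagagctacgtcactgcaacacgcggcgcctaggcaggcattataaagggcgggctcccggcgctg. The AP-1 letters TGANTCA and the CArG box, the site of serum response factor, were in none of the 7 genes' windows and in 6.75% and 1.47% of all windows. A match is a run of letters and not a bound site.

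Depth ran from 23851293 to 32643158 reads in genes per library. Akt1 stood at 399 to 529 CPM in scramble (reads of a gene scaled to the library's total reads in genes) and 52.7 to 81.7 CPM in the pools. Its mean was lowest in pool 2 (52.7 and 55.1 CPM) and highest in pool 3 (79.3 and 81.7 CPM). Pool 1 had 63.9 and 58.6 CPM and pool 4 had 55.1 and 62.4 CPM. The part of these Akt1 differences in the values of the 10 genes was not tested. One library, scramble replicate 1, correlated with the other 10 at a median of 0.948, while each of those 10 had a median of at least 0.99. Against scramble replicates 2 and 3 its short genes were high and its long genes low, with medians from 0.74 in the shortest of 5 length classes to -0.81 in the longest on the log2 scale. The 10 genes ran from 0.38 for Tead2 to -1.49 for Tead1 and -1.50 for Lats1 in this library, with Ctgf at 0.21 and Cyr61 at 0.22. Length did not order all of them: Tead4 was at -0.47 where the median of its class was 0.29, Wwtr1 at -0.64 where it was -0.05, and Yap1 at -0.33 where it was -0.81. Lats1 (-1.50) and Lats2 (-0.96) were also well below the median of their class, which was -0.34. The 10 genes were therefore tested against scramble with all libraries and again without scramble replicate 1.

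**Figure D1:**
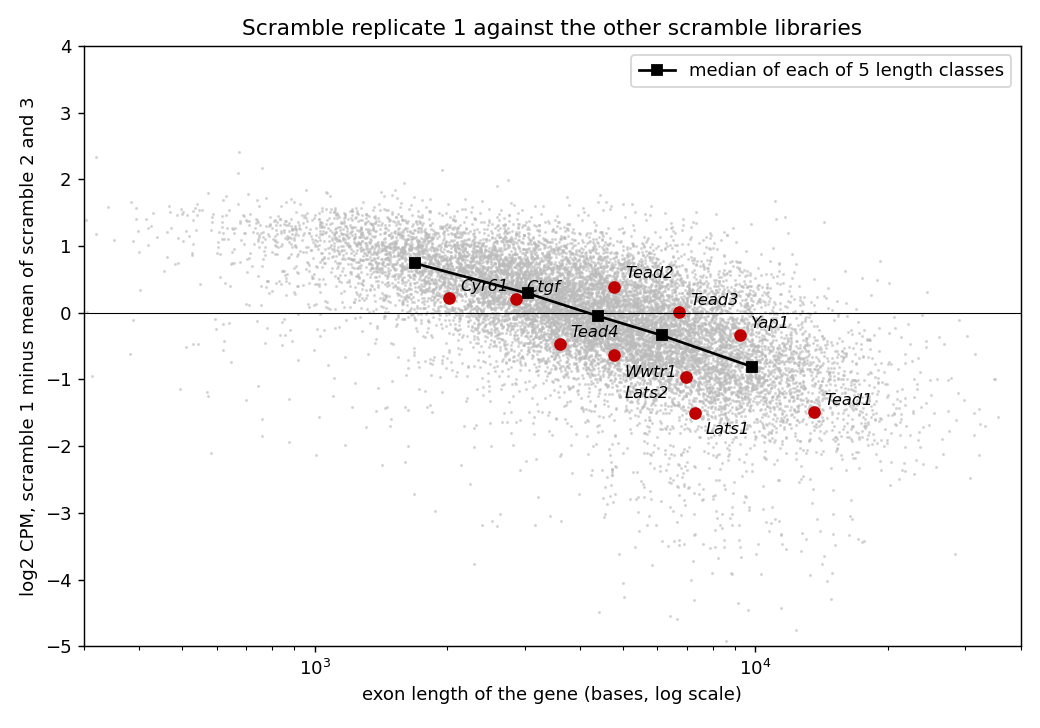
Difference between scramble replicate 1 and the mean of scramble replicates 2 and 3 in log2 CPM (vertical axis) against the exon length of each gene in bases (horizontal log axis). Grey points are all genes, red points the 10 Hippo genes, and black squares the medians of 5 length classes, which fall from 0.74 to -0.81; Lats1 and Tead1 sit lowest of the 10.

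With all libraries, the calls among the 10 genes were in Ctgf and Cyr61. Ctgf and Cyr61 were highest in pool 3, and Ctgf in pool 2 stayed within the range of the scramble libraries. Lats2 had the same order of pools as Ctgf. Without scramble replicate 1, Tead3 passed as lower than scramble in pools 1, 3 and 4, and Tead4 as higher in pool 1 only. In pool 1 Tead3 (-0.32 ± 0.08) and Tead4 (0.41 ± 0.14) moved further than Lats2 (0.29 ± 0.04) and Cyr61 (0.21 ± 0.06). In pool 3 Tead3 (-0.30) and Tead4 (0.22) moved less than Lats2 (0.59) and Cyr61 (0.66), and in pool 4 they also moved less.

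Ctgf was read at 969, 882 and 752 CPM in scramble replicates 1, 2 and 3. In the pools it was 1283 and 1288 CPM (pool 1), 966 and 942 CPM (pool 2), 1641 and 1593 CPM (pool 3), and 1353 and 1372 CPM (pool 4). Pools 1, 3 and 4 lay above every scramble library, and pool 2 overlapped scramble. With all libraries, Ctgf rose in pool 3 by 0.83 ± 0.11 (log2 fold change ± SE; edgeR adjusted p = 0.00309) and in pool 4 by 0.61 ± 0.11 (0.032). The values were 0.52 ± 0.11 (adjusted p = 0.0603) in pool 1 and 0.14 ± 0.11 (0.611) in pool 2. Without scramble replicate 1, Ctgf passed the test in each pool, at 0.59 ± 0.05 (2.07e-08), 0.21 ± 0.05 (0.0235), 0.89 ± 0.05 (1.06e-11) and 0.68 ± 0.05 (2.3e-09) in pools 1 to 4. These contrasts share their scramble libraries. The pool 4 call with all libraries was lost without scramble replicate 2 (adjusted p = 0.074) or any 1 of the 8 pool libraries (0.0806 to 0.295), and the pool 3 call without pool 3 replicate 1 (0.0521).

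Cyr61, the other CCN target gene, was read at 530, 484 and 407 CPM in scramble. Its pool values were 540 and 538 CPM (pool 1), 576 and 540 CPM (pool 2), 764 and 734 CPM (pool 3), and 629 and 611 CPM (pool 4). All 8 pool libraries were above all 3 scramble libraries, pools 1 and 2 by a narrow margin over scramble replicate 1. With all libraries Cyr61 rose in pool 3 by 0.59 ± 0.11 (edgeR adjusted p = 0.0136), a call lost without pool 3 replicate 1 (0.133) or 2 (0.095), each of which leaves 1 pool 3 library. Its values were 0.13 ± 0.11 (0.549), 0.24 ± 0.11 (0.611) and 0.34 ± 0.11 (0.18) in pools 1, 2 and 4. Leaving out scramble replicate 1, it passed in all pools, at 0.21 ± 0.06 (0.00832), 0.31 ± 0.06 (0.00186), 0.66 ± 0.06 (4.51e-09) and 0.41 ± 0.06 (7.68e-06). Pool 1 and pool 2 overlapped in Cyr61, whereas Ctgf was 1283 CPM or more in pool 1 and 966 CPM or less in pool 2.

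**Figure D2:**
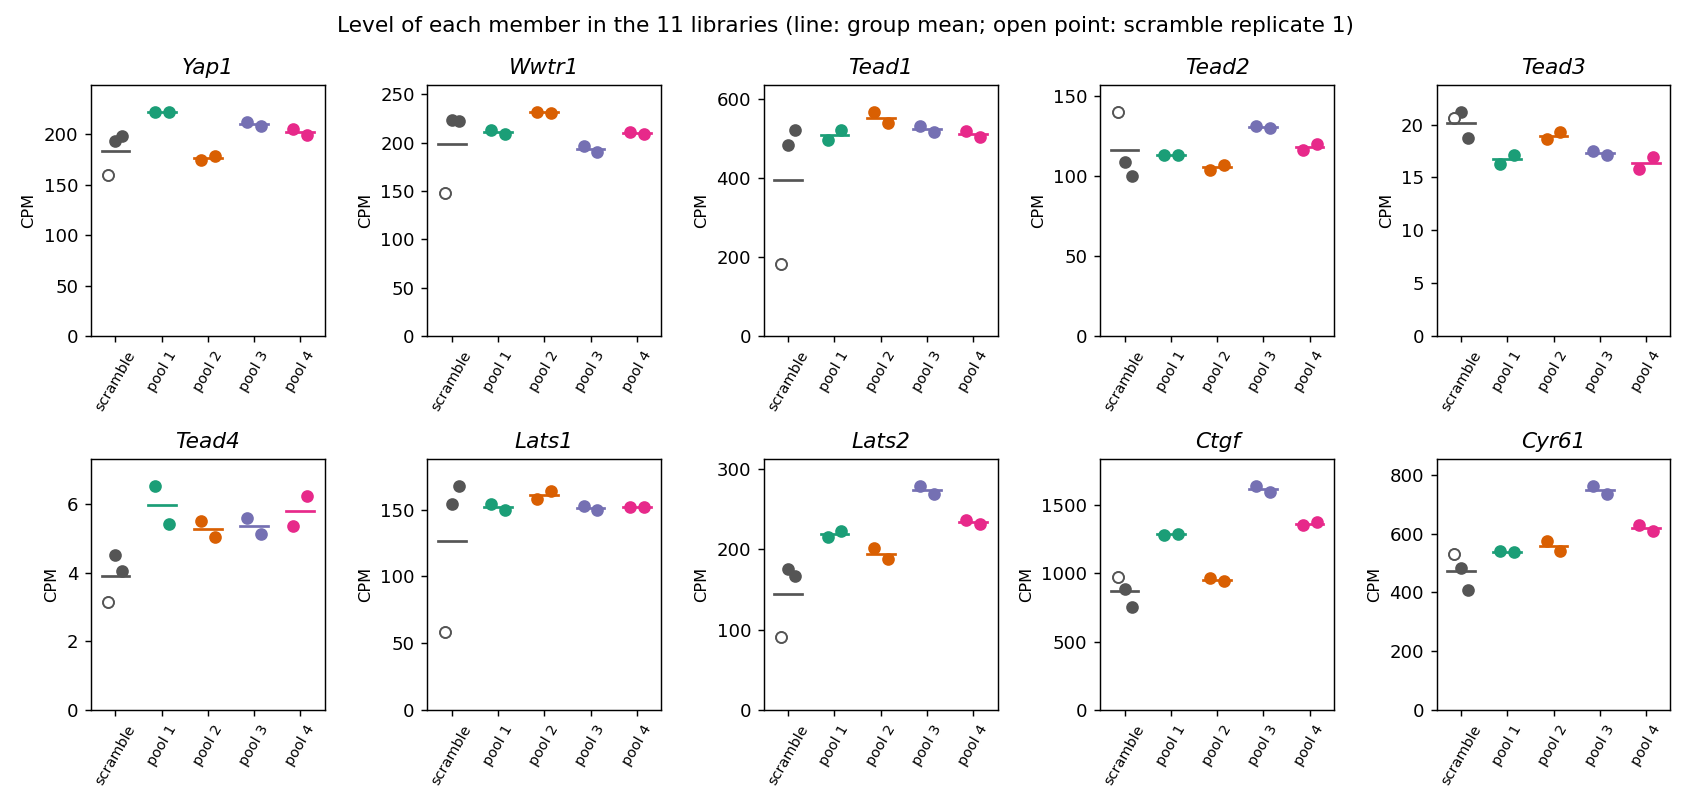
CPM of each of the 10 genes (vertical axes, from 0) in the 11 libraries, by group (horizontal axis). Points are libraries, lines group means, and the open point is scramble replicate 1. Ctgf, Cyr61 and Lats2 are highest in both pool 3 libraries, and Tead1 and Lats1 have their lowest value in scramble replicate 1.

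Lats2, which encodes a kinase that restrains YAP and TAZ, was read at 90.5, 175 and 167 CPM in scramble. The pools had 215 and 223 CPM (pool 1), 201 and 188 CPM (pool 2), 279 and 269 CPM (pool 3), and 236 and 231 CPM (pool 4). No pool library overlapped scramble. With all libraries none of the pools passed: 0.54 ± 0.25 (edgeR adjusted p = 0.359), 0.43 ± 0.25 (0.611), 0.85 ± 0.25 (0.0622) and 0.64 ± 0.25 (0.252) in pools 1 to 4. Scramble replicate 1, at 90.5 CPM, both raised these differences and widened their error. Without it Lats2 rose by 0.29 ± 0.04 (3.66e-05), 0.17 ± 0.04 (0.0307), 0.59 ± 0.04 (5.08e-10) and 0.39 ± 0.04 (7.97e-07).

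Its paralog Lats1 was read at 58.5, 154 and 168 CPM in scramble, and the 8 pool libraries had 150 to 164 CPM. The pools lay within or just below the range of scramble replicates 2 and 3. With all libraries Lats1 was 0.18 to 0.34 above scramble with an SE of 0.37, and no pool passed. With scramble replicate 1 left out, the sign turned, and Lats1 fell by 0.15 ± 0.05 in pool 1 (edgeR adjusted p = 0.0181), 0.18 ± 0.05 in pool 3 (0.00302) and 0.14 ± 0.05 in pool 4 (0.0228). In pool 2 the value was -0.01 ± 0.05 (0.933). The direction for Lats1 thus rests on scramble replicate 1.

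Yap1, the coactivator for which the pathway's output is named, was read at 160, 193 and 198 CPM in scramble. The pools had 222 CPM in both libraries of pool 1, 174 and 178 CPM in pool 2, 212 and 208 CPM in pool 3, and 205 and 199 CPM in pool 4. Pool 2 was the lowest pool and pool 1 the highest, with little spread inside a pool. No pool passed with all libraries. Without scramble replicate 1, Yap1 rose in pool 1 by 0.11 ± 0.04 (edgeR adjusted p = 0.0388) and fell in pool 2 by 0.17 ± 0.04 (0.0172). The values in pools 3 and 4 were 0.01 ± 0.04 (0.797) and -0.02 ± 0.04 (0.808).

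Wwtr1, which encodes TAZ, was read at 148, 224 and 223 CPM in scramble. Its pool values were 213 and 209 CPM (pool 1), 232 and 231 CPM (pool 2), 197 and 191 CPM (pool 3), and 211 and 209 CPM (pool 4). Pool 2 was the highest and pool 3 the lowest, the reverse of Ctgf. No pool passed with all libraries. Against scramble replicates 2 and 3 alone, Wwtr1 fell by 0.15 ± 0.04 in pool 1 (edgeR adjusted p = 0.00645), 0.30 ± 0.04 in pool 3 (2.09e-06) and 0.15 ± 0.04 in pool 4 (0.00537), and was at 0.03 ± 0.04 (0.742) in pool 2.

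Among the TEAD factors, Tead1 had the highest level, at 183, 484 and 521 CPM in scramble, and the 8 pool libraries had 497 to 568 CPM. Apart from scramble replicate 1 its libraries overlapped, and it passed in no pool with or without that library. Tead2 was read at 140, 109 and 100 CPM in scramble and at 131 and 130 CPM in pool 3, its highest pool. With all libraries its value in pool 3 was 0.10 ± 0.13 (edgeR adjusted p = 0.629), and without scramble replicate 1 it rose there by 0.23 ± 0.04 (0.000232). With transcript length offsets and no scramble replicate 1 it also passed in pool 4, at 0.12 (edgeR adjusted p = 0.0333), where 32.5% of genes passed.

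Tead3 was lower than scramble in the pools. It was read at 20.6, 21.2 and 18.7 CPM in scramble, and at 16.3 and 17.1 CPM (pool 1), 18.6 and 19.3 CPM (pool 2), 17.5 and 17.1 CPM (pool 3), and 15.8 and 16.9 CPM (pool 4). Only pool 2 overlapped scramble. Scramble replicate 1 did not stand apart in Tead3 (0.01), and the values with all libraries, -0.32 ± 0.09 (edgeR adjusted p = 0.153), -0.29 ± 0.09 (0.0926) and -0.35 ± 0.09 (0.115) in pools 1, 3 and 4, did not pass. In the 10 libraries without scramble replicate 1, Tead3 fell by 0.32 ± 0.08 (0.00298), 0.30 ± 0.08 (0.00308) and 0.35 ± 0.08 (0.00177) there, with -0.09 ± 0.08 (0.594) in pool 2.

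Tead4 was the least abundant of the 10 genes. It was read at 3.16, 4.53 and 4.07 CPM in scramble, and at 6.55 and 5.43 CPM (pool 1), 5.51 and 5.05 CPM (pool 2), 5.59 and 5.14 CPM (pool 3), and 5.36 and 6.24 CPM (pool 4). All pool libraries were above all scramble libraries, and the pools overlapped each other. No pool passed with all libraries. Once scramble replicate 1 was left out, Tead4 rose in pool 1 by 0.41 ± 0.14 (edgeR adjusted p = 0.0307), and the others gave 0.28 ± 0.14 (0.338), 0.22 ± 0.14 (0.206) and 0.37 ± 0.14 (0.0555).

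**Figure D3:**
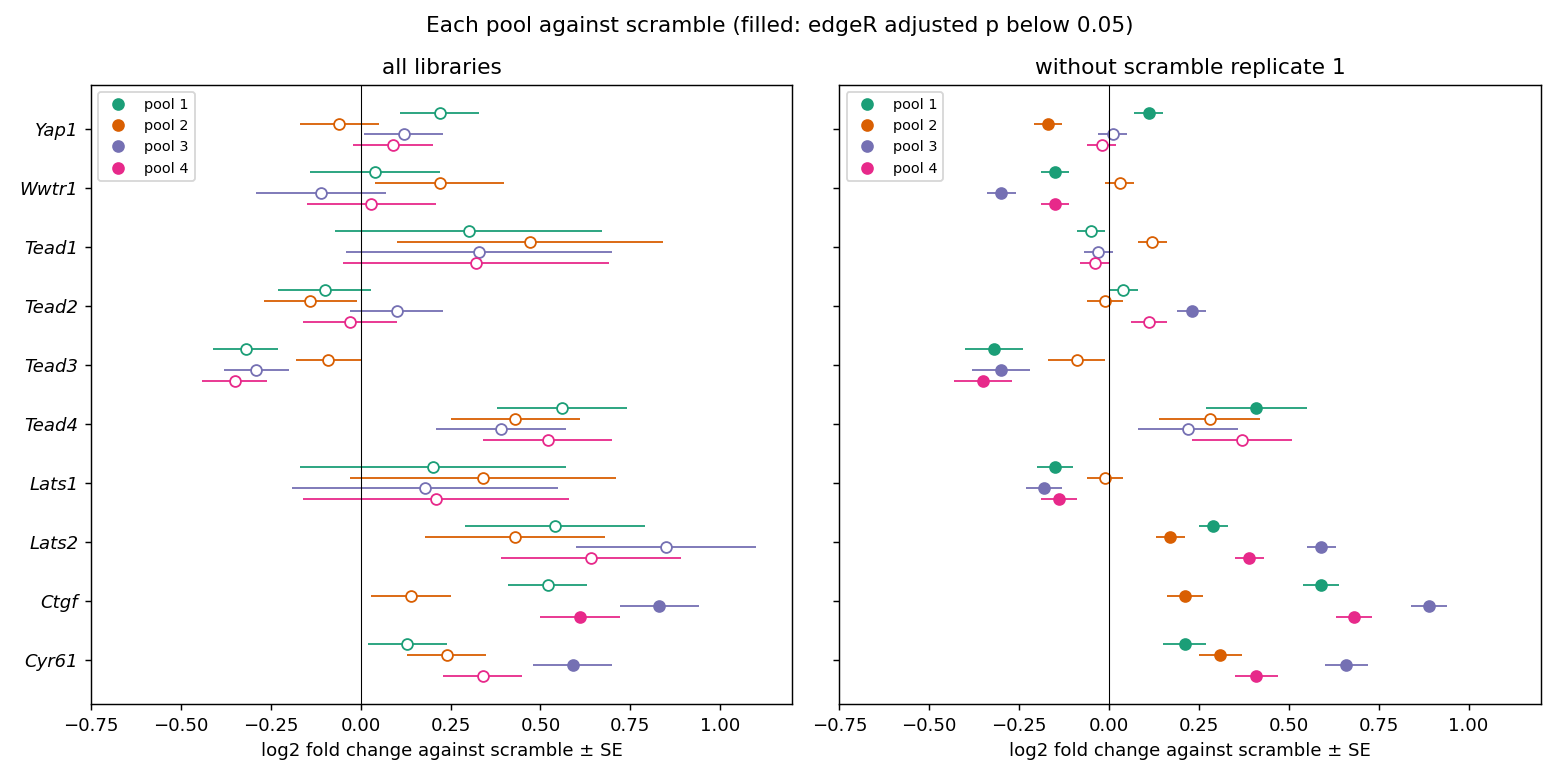
Log2 fold change of each pool against scramble (horizontal axis; bars are the SE) for the 10 genes (vertical axis), with all libraries on the left and without scramble replicate 1 on the right. Filled points passed the edgeR test. On the left only Ctgf (pools 3 and 4) and Cyr61 (pool 3) are filled. On the right Ctgf, Cyr61 and Lats2 are filled in every pool, and Wwtr1, Tead3 and Lats1 are filled below 0 in pools 1, 3 and 4. Yap1, Tead2 and Tead4 are filled in some pools. Tead1 and Lats1 move from above 0 towards or below it. Of all genes, 28.7%, 4.39%, 48.8% and 31% passed in pools 1 to 4 on the right.

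Counted over the 10 genes, 0 passed in pool 1 and pool 2, 2 in pool 3 and 1 in pool 4 with all libraries. Of all genes tested, 1.93%, 0.00707%, 11.2% and 2.57% passed in those pools. Over the 10 genes the median log2 difference was 0.21, 0.23, 0.26 and 0.26, beside -0.02, -0.01, -0.02 and -0.03 over all genes. When scramble replicate 1 was left out, 8, 4, 7 and 6 of the 10 passed, where 28.7%, 4.39%, 48.8% and 31% of all genes did. The medians were then 0.08, 0.08, 0.12 and 0.05, beside 0.00, 0.00, 0.01 and 0.00 over all genes. Of those calls 5, 3, 4 and 3 were higher, where 11.7%, 1.71%, 22.7% and 13.2% of all genes were called higher.

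DESeq2 with all libraries also called Ctgf in pool 1 (adjusted p = 0.00015), Lats2 in pool 3 (0.0165), and Tead3 as lower in pools 3 and 4 (0.0432 and 0.0313). It called 5.8%, 16.4% and 6.17% of genes in pools 1, 3 and 4. Transcript length offsets in edgeR, which take out each library's trend with transcript length, gave calls for Ctgf in pool 1 (0.63, adjusted p = 0.00267), Lats2 in pool 3 (0.79, 0.00622) and Cyr61 in pool 4 (0.52, 0.0351), with 6.04%, 21.3% and 7.19% of genes called.

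The comparison of all 8 pool libraries with scramble, for which a table was deposited, called none of the 10 genes with edgeR. Only 0.00707% of all genes passed, 1 gene, which was Akt1 (-2.87 ± 0.13, adjusted p = 4.22e-07). The largest values were 0.63 ± 0.19 for Lats2 (0.109), 0.54 ± 0.16 for Ctgf (0.108), 0.48 ± 0.13 for Tead4 (0.108), 0.36 ± 0.24 for Tead1 (0.309) and 0.34 ± 0.12 for Cyr61 (0.128). DESeq2 called Tead4 (0.0255), Lats2 (0.0285) and Ctgf (0.0267), where it called 8.82% of genes. In the authors' deposited table the adjusted p was 0.0232 for Tead4, 0.0266 for Lats2, 0.0235 for Ctgf and 0.0654 for Cyr61, with log2 fold changes of 0.45, 0.54, 0.49 and 0.32. Of the genes with an adjusted p in the authors' deposited table, 9.72% were below 0.05, and Tead1 (0.29) had no p. Without scramble replicate 1 edgeR called none of the 10 genes and 0.469% of all genes. Ctgf was then at 0.61 ± 0.18 (edgeR adjusted p = 0.136).

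By level alone, 3 of the 10 genes (Tead4, Lats2 and Cyr61) were higher in every pool library than in every scramble library, and none was lower. Of all genes, 6.89% were higher in this way and 2.67% lower. When scramble replicate 1 was set aside, Ctgf joined them, so that 4 of 10 were higher and none lower, beside 12.7% and 5.3% of all genes.

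Differences among the pools do not involve the level in scramble, though all 11 libraries set the error. Ctgf was lower in pool 2 than in the mean of the other 3 pools by -0.51 ± 0.10 on the log2 scale (edgeR adjusted p = 0.0254). Pool 2 is the only pool without siRNA 7, under the numbering given above. Of all genes 5.25% passed in this contrast. The Ctgf call was lost without any 1 pool library (0.0744 to 0.294). In pool 3 against the other pools, 1.83% of genes passed and none of the 10 did. None of the 10 passed for pools 1 and 4 either, where 0.0141% and 0% of genes did. Ctgf was at 0.41 ± 0.10 (0.0793) and Cyr61 at 0.36 ± 0.10 (0.124) in pool 3. A joint test over the 4 pools passed for 2.46% of genes and for none of the 10, with 0.0788 for Ctgf and 0.294 for Cyr61. Here DESeq2 called both genes, among the pools (adjusted p = 1.21e-05 for Ctgf and 0.0461 for Cyr61, 7.58% of genes called) and in pool 3 against the others (0.00159 and 0.0219, 6.18%). With length offsets edgeR called Ctgf, among the pools (adjusted p = 0.00852, 7.01% of genes) and in pool 3 against the others (0.0104, 7.2%). Leaving out scramble replicate 3 gave Ctgf adjusted p = 0.0419 and 0.0461 in these tests.

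Most of the error in that fit came with scramble replicate 1. Without it, 42.8% of genes differed among the pools, and 9 of the 10 did, all but Tead4 (edgeR adjusted p = 0.583). Pool 2 differed from the other pools in 43.7% of genes and in 9 of the 10: Ctgf (-0.51 ± 0.04, 4.23e-09), Lats2 (-0.25 ± 0.04), Yap1 (-0.20 ± 0.03), Tead2 (-0.13 ± 0.04) and Cyr61 (-0.12 ± 0.05) were lower there. Wwtr1 (0.23 ± 0.03), Tead3 (0.23 ± 0.06), Tead1 (0.16 ± 0.04) and Lats1 (0.14 ± 0.04) were higher. Pool 3 differed from the others in 39.6% of genes and in 5 of the 10, with Ctgf (0.41 ± 0.04), Cyr61 (0.35 ± 0.04), Lats2 (0.31 ± 0.03) and Tead2 (0.18 ± 0.04) higher and Wwtr1 (-0.21 ± 0.03) lower. In pool 1, Yap1 was higher (0.17 ± 0.03, 0.00641) and Cyr61 lower (-0.25 ± 0.05, 0.00449), among 1.73% of genes. None of the 10 passed in pool 4, where 1.48% of genes did. Akt1 itself was higher in pool 3 than in the other pools (0.44 ± 0.05, edgeR adjusted p = 2.26e-07). In pool 2 it was lower (-0.24 ± 0.05, 0.000427). With all libraries Akt1 did not pass in either contrast (0.0873 in pool 3 and 0.329 in pool 2). In a fit of the 8 pool libraries alone, chosen after the values were seen, Ctgf passed the joint test among the pools (edgeR adjusted p = 1.85e-12). In that fit 48.6% of genes were called.

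Levels of different genes were compared per kilobase of exon. Over the 8 pool libraries the mean CPM per kilobase (RPKM) was 456 ± 88.6 for Ctgf and 305 ± 43.9 for Cyr61 (SD, n = 8). Wwtr1 (44.3 ± 3.04), Tead1 (38.7 ± 1.64), Lats2 (33 ± 4.5), Tead2 (24.4 ± 2.07), Yap1 (21.9 ± 1.95) and Lats1 (21.1 ± 0.663) formed a middle group. Tead3 (2.58 ± 0.169) and Tead4 (1.56 ± 0.145) were lowest, below the other 2 TEAD genes in every library. Over the pool libraries the ranges of each neighbouring pair of the middle group overlapped, and so did those of Ctgf and Cyr61. These ranges do not compare genes within a library. Within every library Ctgf was above Cyr61, as in scramble (339, 308 and 263 against 263, 240 and 202 RPKM in replicates 1, 2 and 3).

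Other genes of the pathway were taken from 5 lists of 62 genes, of which 58 passed the low-count filter. Among 19 other YAP target genes members differed in direction. With all libraries 1 of the 19 fell in each of pools 1, 3 and 4, where 1.93%, 11.2% and 2.57% of all genes passed. It was Igfbp3, which encodes a binding protein for insulin-like growth factors. It fell by 0.94 ± 0.17 in pool 1 (edgeR adjusted p = 0.0351), 0.93 ± 0.17 in pool 3 (0.0108) and 0.90 ± 0.17 in pool 4 (0.0352). Igfbp3 was read at 15.8, 14.1 and 10.6 CPM in scramble, 9.81 and 10.5 CPM in pool 2, and 6.75 to 7.87 CPM in the other 6 pool libraries. None of the 19 passed in pool 2.

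Leaving out scramble replicate 1, 3 of the 19 rose and 5 fell in pool 1, none passed in pool 2, 5 rose and 8 fell in pool 3, and 2 rose and 6 fell in pool 4. Of all genes 28.7%, 4.39%, 48.8% and 31% passed in pools 1 to 4, with 11.7%, 1.71%, 22.7% and 13.2% called higher. Their median log2 fold changes were -0.08, 0.05, -0.06 and -0.05. Among the 13 called in pool 3, the largest changes were in Igfbp3 (-0.84 ± 0.12), Ankrd1 (0.54 ± 0.05), Dock5 (-0.52 ± 0.05) and Crim1 (-0.46 ± 0.04). Ankrd1, which encodes a stretch-responsive ankyrin-repeat protein and is a standard YAP target, was read at 616 and 556 CPM in pool 3. Its other pool libraries were at 353 to 408 CPM, and scramble at 523, 396 and 360 CPM. Ankrd1 was thus high in pool 3 alone among the pools, and scramble replicate 1 was also high. Myof, which encodes the membrane protein myoferlin, was lowest in pool 2 and highest in pool 3 among the pools. It was read at 322, 695 and 719 CPM in scramble, 777 CPM in both libraries of pool 2, and 880 to 947 CPM in the other pool libraries, and without scramble replicate 1 it rose by 0.27 ± 0.04 in pools 1 and 4 and 0.32 ± 0.04 in pool 3, with 0.12 ± 0.04 (edgeR adjusted p = 0.0888) in pool 2. Ptpn14, a phosphatase that binds YAP, rose likewise in pools 1, 3 and 4, by 0.16 ± 0.04, 0.17 ± 0.04 and 0.13 ± 0.04. Dock5, a Rac exchange factor, was at 164 and 168 CPM in pool 3 and 197 to 243 CPM in the other pool libraries. In all, 12 of the 19 differed among the 4 pools, where 42.8% of all genes did.

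**Figure D4:**
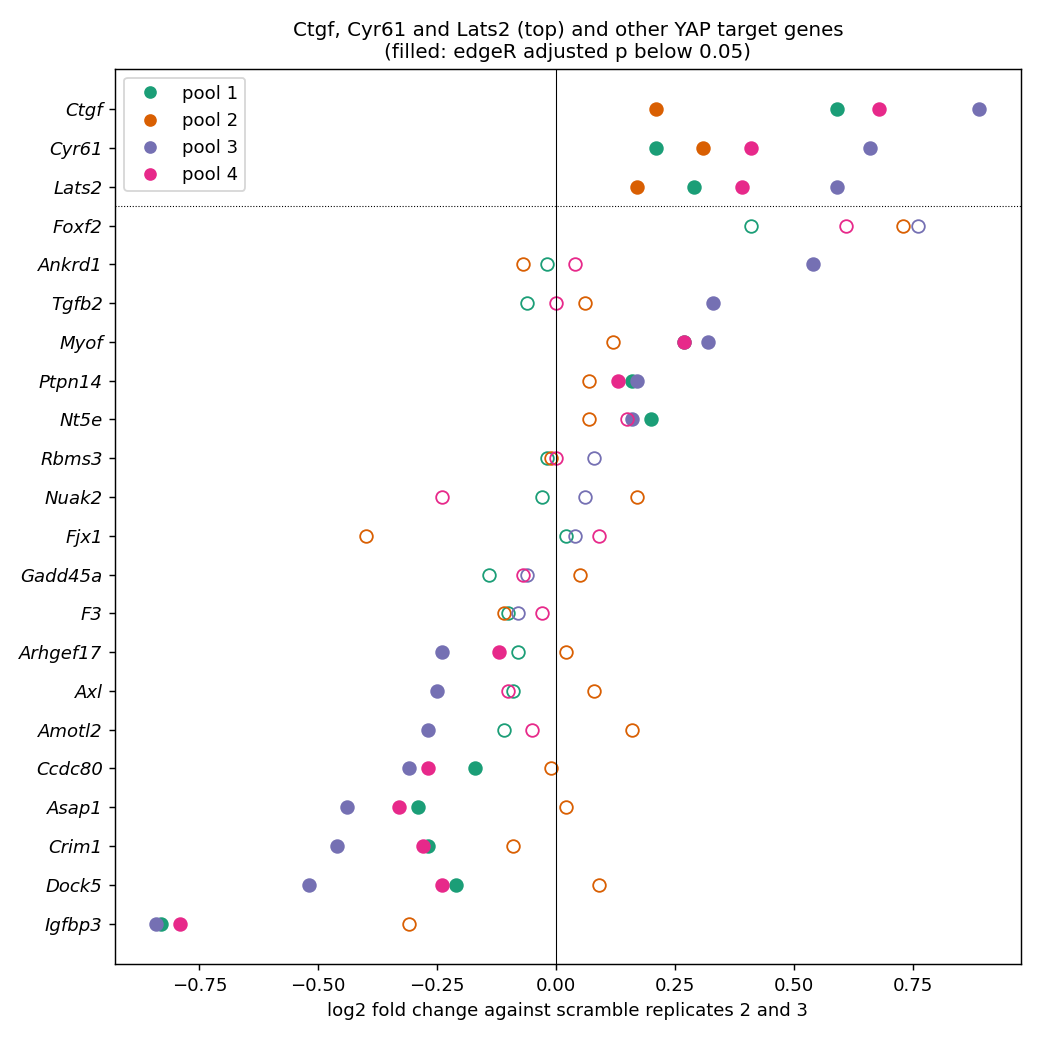
Log2 fold change of each pool against scramble replicates 2 and 3 (horizontal axis) for Ctgf, Cyr61 and Lats2 (above the dotted line) and 19 other YAP target genes (below it), ordered by the pool 3 value. Filled points passed the edgeR test. The upper 3 genes are above 0 in all pools. Lats2 is listed with the kinases and not as a target gene, and was placed beside Ctgf and Cyr61 with the values known. In pool 3 the listed targets spread from 0.54 for Ankrd1 among those called to -0.84 for Igfbp3.

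The 15 genes of the Hippo core and its adaptors gave no call with all libraries in any pool. With scramble replicate 1 left out, 4 rose and 3 fell in pool 1, 4 rose and 4 fell in pool 3, 4 rose and 3 fell in pool 4, and none passed in pool 2. The 8 of 15 called in pool 3 stand beside 48.8% of all genes, and the 7 called in pools 1 and 4 beside 28.7% and 31%. Stk3, which encodes an MST kinase, fell by 0.44 ± 0.06 in pool 1 (edgeR adjusted p = 7.46e-06), 0.56 ± 0.06 in pool 3 (1.06e-07) and 0.32 ± 0.06 in pool 4 (0.000237). It was read at 37.7 to 45.8 CPM in those pools, at 54.0 and 54.6 CPM in pool 2, and at 42.0, 51.1 and 57.1 CPM in scramble. The kinase gene Taok3, whose product acts upstream of the MST kinases, rose by 0.34 ± 0.05 in pool 3 (5.18e-06). Wwc2, an adaptor of the KIBRA family, fell by 0.34 ± 0.04 there (3.76e-07).

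Of the 14 binding and inhibitory partners of YAP, 12 were tested and none passed with all libraries. Against scramble replicates 2 and 3 alone, 3 rose and 1 fell in pool 1, 4 rose and 3 fell in pool 3, 2 rose and 2 fell in pool 4, and none passed in pool 2. These are 4, 7 and 4 of 12, beside 28.7%, 48.8% and 31% of all genes in pools 1, 3 and 4. In pool 3, Amot (-0.37 ± 0.07) and Amotl2 (-0.27 ± 0.05), which encode angiomotins that hold YAP at junctions, fell, as did the 14-3-3 gene Ywhab (-0.23 ± 0.04), while the 14-3-3 gene Ywhaz (0.33 ± 0.04) rose. Amotl2 and Ptpn14 are also listed among the YAP targets.

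Of 13 upstream polarity and cadherin genes 12 were tested. With all libraries, the Crumbs polarity genes Crb2 (-0.98 ± 0.12, edgeR adjusted p = 0.00211) and Crb3 (-1.21 ± 0.28, 0.0286) fell in pool 3, and Scrib (0.42 ± 0.08, 0.0165), which encodes a polarity scaffold, rose. Crb2 was at 11.4 and 11.9 CPM in pool 3, 16.9 to 23.5 CPM in the other pool libraries, and 19.8 to 23.5 CPM in scramble. Both pool 3 libraries were below all others. Crb3 was at 3.61 CPM or less in every library, so its fold change rests on few reads. In the 10 libraries without scramble replicate 1, 4 of the 12 rose and 2 fell in pool 3, where 48.8% of all genes passed. Crb2 (-1.07 ± 0.08, edgeR adjusted p = 4.91e-10), Crb3 (-0.91 ± 0.22, 0.00191) and Scrib (0.38 ± 0.05, 6.89e-07) were among them. Of the other CCN genes 3 of 4 were tested; none passed with all libraries in any pool. Once scramble replicate 1 was left out, Nov rose (1.18 ± 0.41, 0.0217) and Wisp2 fell (-0.34 ± 0.12, 0.0235) in pool 3, with Nov at 1.03 CPM or less everywhere.

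The genes whose log2 CPM followed Ctgf most closely over the 11 libraries, of 9802 compared, were Ppm1d (Pearson r = 0.987), Dusp1 (0.984), Taf7 (0.978), Lrrc61 (0.977) and Hdac11 (0.976). Over the 10 libraries without scramble replicate 1 they were Sec24b (0.989), Ppm1d (0.988), Mrpl33 (0.988), Oip5 (0.988) and Klhdc3 (0.987). Dusp1, which encodes a MAP kinase phosphatase, was read at 51.4 to 64.9 CPM in scramble, 66.3 and 71.1 CPM in pool 2, 95.7 to 111 CPM in pools 1 and 4, and 159 CPM in both libraries of pool 3. For Cyr61 the closest were Myc (0.953), Irak2 (0.92), Arvcf (0.916), Cdc25b (0.906) and Ppp1r18 (0.906) over 11 libraries. Over 10 they were Jag1 (0.958), Myc (0.956), Rad52 (0.942), Pim1 (0.942) and Ube2e3 (0.942). Myc was at 129 and 135 CPM in pool 3 and 79.5 to 116 CPM elsewhere. Ctgf and Cyr61 themselves had r = 0.86 over 11 libraries and 0.859 over 10. Lats2 had 0.657 with Ctgf and 0.563 with Cyr61 over 11, and 0.966 and 0.931 over 10. Among the genes compared, Cyr61 ranked 217 in likeness to Ctgf over 11 libraries and 1036 over 10, and Lats2 ranked 885 and 75. In likeness to Cyr61, Ctgf ranked 25 and 162, and Lats2 ranked 782 and 10. The points share the 5 groups and the libraries' depth, so these are descriptions of a common pattern over groups.

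Summed levels of cell type markers differed between the groups. The 11 granulosa markers summed to 4428 to 5120 CPM in scramble, 3934 to 4295 CPM in pool 2, 3283 to 3568 CPM in pools 1 and 4, and 2607 to 2768 CPM in pool 3. In pool 3, 5 of the 10 tested fell with all libraries, and 8 of 10 without scramble replicate 1. Of all genes, 11.2% and 48.8% passed there in either direction. Inha, Nr5a1 and Foxl2 were present in every library, whereas Fshr and Amh were below 1 CPM in all. Inha and Gja1 made up most of the sum, and not every marker followed its order of pools. Foxl2 was at 112 and 123 CPM in pool 3 but at 135 to 157 CPM in pools 1, 2 and 4 alike. Amhr2 was lowest in pool 2 among the pools (80.5 and 80.8 CPM). The granulosa sum was lowest in pool 3, where Ctgf was highest, and of the pools it was highest in pool 2, where Ctgf was lowest.

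The 5 smooth muscle markers summed to 5980, 3635 and 3045 CPM in scramble, 3462 to 3574 CPM in pool 2, 2205 to 2384 CPM in pools 1 and 4, and 1851 to 1950 CPM in pool 3. Scramble replicates 2 and 3 thus lay on either side of pool 2. In pool 3, 4 of 5 fell with all libraries and 5 of 5 without scramble replicate 1, where 11.2% and 48.8% of all genes passed in either direction. The 5 surface epithelium markers summed to 130 to 176 CPM in scramble and 94.2 to 98.4 CPM in pool 3. There 2 of 5 fell with and without scramble replicate 1, beside the same shares of all genes. The 7 fibroblast and stroma markers summed to 2156 to 2889 CPM in scramble and 2455 to 2809 CPM in the pools.

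The 5 theca markers summed to 17.7, 40.5 and 40.8 CPM in scramble, 39.4 to 40.7 CPM in pool 2 and 27.5 to 30.6 CPM in the other pools. Ptch1 made up most of this sum (16.1, 38.6 and 39.3 CPM in scramble), and Cyp17a1, Insl3 and Gli1 were below 1 CPM everywhere. The 5 endothelial markers were low but differed between the groups, with sums of 3.34, 8.25 and 7.42 CPM in scramble, 7.8 to 9.03 CPM in pool 2, 9.62 to 10.2 CPM in pool 4, 10.6 to 11.6 CPM in pool 1 and 12.8 to 14.2 CPM in pool 3; Cdh5 and Vwf were below 1 CPM everywhere. The 5 immune markers summed to 5.08 to 7.57 CPM in scramble, 4.99 to 6.62 CPM in pools 1, 2 and 4, and 7.9 to 9.09 CPM in pool 3, with Ptprc, Adgre1 and Cd3e below 1 CPM everywhere. The 5 oocyte markers summed to 8.06 CPM or less, with Bmp15, Zp3 and Dazl below 1 CPM everywhere. The part of these differences in the Ctgf, Cyr61 and Lats2 values was not tested.

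In the annotation of mm10 (GENCODE M21), Ctgf lies at chr10:24595442-24598683 on the plus strand, Cyr61 at chr3:145646976-145649981 on the minus strand and Lats2 at chr14:57689662-57758388 on the minus strand. Yap1 lies at chr9:7931999-8004596 on the minus strand. Reads were counted over exons of these genes, and the counts do not separate their transcripts.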

How the data were processed

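RNA of 11 libraries (1.3 µg total RNA each) went into a stranded TruSeq mRNA kit, and single reads of 75 bases were sequenced, per the labels' protocols. Per the submitters' processing notes, TopHat2, featureCounts 1.5.0-p2, DESeq2, cutadapt 1.9.1, FastQC 0.11.5 and bcl2fastq 2.15.0 were used, with mm10 as the build; the strand setting of counting is not given in the sources used here, so reads of overlapping genes on opposite strands may not be separated. The authors deposited raw counts per gene for each library. The authors' deposited table of pools against scramble holds a mean signal, log2 fold changes with standard errors, a test score, and p-values and adjusted p-values, from DESeq2 per the submitters' processing notes; it was used only for the values credited to it.

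The 92 spike-in (ERCC) rows, 0.268 to 0.788% of reads, were left out of library sizes and tests. CPM values, computed here from the deposited counts, scale a gene's reads to the library's total in genes. Genes passing edgeR's filterByExpr (14144, or 14062 without scramble replicate 1) were tested with edgeR 4.0.16's quasi-likelihood F test (R 4.3.3, TMM scaling), with Benjamini-Hochberg adjustment over all genes tested in each contrast and a threshold of 0.05. The SE is the absolute log2 fold change over the square root of F. All pools against scramble was a fit with 2 groups and the other contrasts a fit with 5. Exon lengths came from GENCODE M21 for 98.5% of genes, matched by symbol. The scripts were checked on simulated counts. Alternatives were RLE scaling, no low-count filter, DESeq2 1.42.0, a replicate block, transcript length offsets, the mean of the pools in the fit with 5 groups, leaving out pool 2 and leaving out each library; 2 further ones were chosen after the values were seen. Replicates of a group differed by more than counting noise (chi-square per degree of freedom of at least 2.72). The 10 genes and Akt1 are always named; from each pathway list up to 4 called genes per comparison may be named by size of change, and the 5 most correlated genes whose average log2 CPM was 3 or more (prior count 3) for Ctgf and Cyr61. Dusp1, Myc, Myof, Ptpn14, Taok3 and Wwc2 are singled out by level or role after their values were seen. The genes and lists were chosen with earlier results of these data known. Interval estimates from counts cover counting error only and were not used.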

Additional observations from a re-analysis of the deposited data

Results flagged for a closer look

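The level of Ctgf in pool 2 differed from the mean of the other 3 pools, with a log2 difference of -0.51 and both pool 2 libraries below the 6 others (edgeR adjusted p = 0.0254). Among the other pathway genes, Crb2 was higher in pool 2 than in the other pools by 0.61 (0.0111), lower in pool 3 than in the other pools by a log2 difference of -0.77 (0.0172), and differed among the 4 pools (0.0197). Crb3 was higher in pool 2 than in the other pools by 1.02 (0.0367), at 1.14 to 3.05 CPM in the pool libraries.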

How the results depend on the processing

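The number of genes called depended on the setting, and so did the values of some of the members. Over all pools, Tead1 ran from 0 to 0.67 and Lats1 from -0.12 to 0.56 across the settings. For all pools against scramble it was 1, against 2 with RLE scaling, 2 with no low-count filter, 1174 with DESeq2, 1649 with the replicate block, 46 with transcript length offsets, 901 with the mean of the 4 pools in the fit with 5 groups, 1390 without both pool 2 libraries, and 1 to 2336 when 1 library was left out, the highest without scramble replicate 3 and 66 without scramble replicate 1. With length offsets and no scramble replicate 1, chosen after the data were seen, it was 39. Genes called in any pool against scramble numbered 1599, against 2435 with DESeq2, 3086 with length offsets, 7859 with offsets and no scramble replicate 1, and 234 to 7587 with 1 library left out, the highest without scramble replicate 1. Genes differing among the pools numbered 348, against 1072 with DESeq2, 146 with the replicate block, 992 with offsets, 6237 with offsets and no scramble replicate 1, 6835 with the pool libraries only, and 6 to 6017 with 1 library left out. Genes of any pool against the other pools numbered 771, against 1457, 1791, 7509 and 8006 under DESeq2, offsets, offsets without scramble replicate 1 and pool libraries only, and 111 to 7316 with 1 library left out.

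Same-numbered pool libraries did not deviate together (6 pairs, correlations of -0.0501 to 0.0786). This check did not include scramble and cannot exclude a pairing. Only scramble has a replicate 3, so the replicate block also takes that library out of the contrasts with scramble. With the block the Ctgf value in pool 4 was 0.52 (edgeR adjusted p = 0.0855) and Lats2 over all pools passed at 0.78 (0.0491). Leaving out scramble replicate 3, which is not a separate check from the block, Lats2 over all pools passed as well (0.75, 0.0426). Ctgf over all pools passed without both pool 2 libraries (0.66, 0.00944) and with the mean of the pools in the fit with 5 groups (0.0114). Tead3 over all pools also passed without both pool 2 libraries (-0.32, 0.0287).

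Signs turned only where values were small or scramble replicate 1 was low. With length offsets, Yap1 was at -0.10 over all pools, -0.06 in pool 3 and -0.10 in pool 4. Wwtr1 was at -0.01 without both pool 2 libraries and, in pool 3, at 0.01 with the replicate block. With offsets and no scramble replicate 1, all pools and pools 1 and 4 gave -0.12, -0.13 and -0.13 for Wwtr1 and 0.11, 0.06 and 0.12 for Tead2. Of these, Wwtr1 in pools 1 and 4 and Tead2 in pool 4 passed the threshold. The same setting gave Lats1 -0.10 over all pools and -0.12, -0.02, -0.14 and -0.11 in pools 1 to 4 (past the threshold in pools 1, 3 and 4), and Tead1 -0.02 in pool 1 and -0.01 in pool 4. Leaving out 1 library gave ranges over all pools of -0.01 to 0.16 for Yap1, -0.14 to 0.15 for Wwtr1, -0.13 to 0.10 for Tead2 and -0.12 to 0.49 for Lats1. In pool 1 the ranges were -0.15 to 0.14 for Wwtr1, -0.05 to 0.56 for Tead1, -0.19 to 0.04 for Tead2 and -0.15 to 0.46 for Lats1. Lats1 ranged from -0.01 to 0.60 in pool 2 and from -0.18 to 0.44 in pool 3, and Tead1 from -0.03 to 0.58 in pool 3. In pool 4 the ranges were -0.02 to 0.15 for Yap1, -0.15 to 0.14 for Wwtr1, -0.04 to 0.57 for Tead1, -0.12 to 0.11 for Tead2 and -0.14 to 0.47 for Lats1. Against the other pools, Tead4 ranged from -0.03 to 0.24 in pool 1, -0.12 to 0.01 in pool 2 and -0.05 to 0.16 in pool 4. The cause of these changes was not tested. Ctgf, Cyr61 and Lats2 against scramble kept their sign in every setting run.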
